A study of Mus musculus with 6 samples.

Results

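The 33 genes described here were chosen by name, from glucose transport through glycolysis and lactate to glycogen synthesis and breakdown, and all 33 were found among the 26881 genes measured. They were measured by RNA-seq in 3 heart libraries of WT mice and 3 of Cfp1-cKO mice at the age of 2 weeks. Cfp1-cKO mice were Myh6-Cre: Cfp1 flox/flox on C57BL/6, and the controls were WT littermates whose alleles are not given further. Cfp1, encoded by Cxxc1, is a CXXC zinc finger protein that binds unmethylated CG dinucleotides and belongs to the complexes that methylate lysine 4 of histone H3. The Myh6 promoter drives Cre in cardiomyocytes, so other cells of the heart keep Cfp1. Whether a sample was 1 heart or a pool is not given in the sources used here, and the p-values therefore reflect the spread among these libraries alone, which may be technical.

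Glucose enters the heart muscle cell through transporters, is phosphorylated and split to pyruvate by the enzymes of glycolysis, or is stored as glycogen and released again by glycogen phosphorylase. Many of these steps are carried out by more than one gene: a form enriched in striated muscle, such as Pfkm, Eno3, Pgam2 and Pygm, and a form used by most other cells, such as Pfkl, Pfkp, Eno1, Pgam1 and Pygb. The heart relies more on glucose before birth and turns to fatty acids as it matures, and the proportions of the forms change during muscle development.

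The libraries held 16672652 to 22700810 fragments, and 1 fragment in a gene of 2 kilobases was worth 0.0220 to 0.0300 FPKM (fragments per kilobase of exon, scaled to library size). Cxxc1 read 9.66, 12.9 and 10.03 FPKM in the WT libraries against 8.02, 9.94 and 8.74 FPKM in the Cfp1-cKO libraries, with overlapping groups (log2 fold change -0.26, adjusted p = 0.249 from limma, and -0.75 and 0.0495 with the median-of-ratios scaling described below). The sources used here do not name the deleted exons, so this total level does not measure the deletion. Of 12 cardiomyocyte markers, 5 were lower and none was higher (limma; 5 had an unadjusted p under 0.05), and their summed level was 13151 to 21639 FPKM in WT and 10762 to 14469 FPKM in Cfp1-cKO hearts, with Actc1 the most abundant. Markers of lung epithelium stood apart in the Cfp1-cKO libraries: 12 of 13 were higher, with a summed level of 79.3 to 105 FPKM in WT, nearly all of it Hopx, and of 3291 to 5014 FPKM in Cfp1-cKO hearts. Sftpc, the surfactant protein of lung alveolar cells, was listed at 0 in WT replicates 1 and 3 and at 0.331 FPKM in WT replicate 2, against 1202, 2163 and 3232 FPKM in the Cfp1-cKO libraries. Cldn18, Nkx2-1 and Lamp3 were at 0 in all WT libraries, and the same number of lung markers, 12, was higher with median-of-ratios scaling. Of 14 markers of alveolar macrophages and immune cells 8 could be tested and 5 were higher, with Lyz2 the most abundant, with a summed level of 44.1 to 84.3 FPKM in WT and 441 to 886 FPKM in Cfp1-cKO hearts, and Marco was at 0 in all WT libraries. In whole tissue, fewer cells of a type and less RNA per cell cannot be told apart. The part of lung and immune RNA in the differences below was not tested.

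In Cfp1-cKO hearts, 5 of the 29 genes that reached an average of 1 FPKM were higher, 2 were lower and 22 were not called; Pfkfb1, Aldoc, Eno2 and Slc16a3 lay below that level and were not tested. Pfkl, Pfkp, Gbe1, Pgam1 and Phka1 were the higher genes, and Eno3 and Ldhb the lower ones. A gene was called at an adjusted p below 0.05 (limma on log2(FPKM + 1), Benjamini-Hochberg over 11017 genes) and an absolute log2 fold change above 0.5. Over all tested genes 21.1% were called higher and 1.68% lower, against 17.2% and 6.90% of the 29. The median log2 fold change of the 29 was 0.33, beside 0.35 over all tested genes, and 22 of the 29 had a positive and 7 a negative fold change. Of the 29, 10 had all Cfp1-cKO libraries above all WT libraries and 3 had them all below, beside 46.4% and 3.23% of all tested genes. With median-of-ratios scaling between libraries, taken from genes above 0 in every library, the median of all tested genes moved to -0.08, and 3.01% of genes were called higher and 4.06% lower. On that scale none of the 29 was called higher by limma (10 of the 29 had an unadjusted p under 0.05 in either direction) and 4 were called lower, namely Eno3, Pygm, Pfkm and Ldhb, the median of the 29 was -0.19, and 3 of the 29 had all Cfp1-cKO libraries above WT and 9 had them below, beside 12.7% and 19.5% of all tested genes. When the scaling factors were taken from the tested genes alone, a choice made after the calls under the first scaling were seen, the median of all genes was 0.00, Pfkp was called higher, and Eno3, Pfkm and Ldhb were called lower, beside 3.73% of all genes higher and 3.25% lower. The sign of 13 of the 29 fold changes turned under the first scaling and of 11 under the second, none of them a called gene. Voom on fragment counts recovered from the FPKM steps, another alternative, called 4 of the 29 higher and 3 lower, beside 12.8% and 1.92% of the genes it tested.

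**Figure D1:**
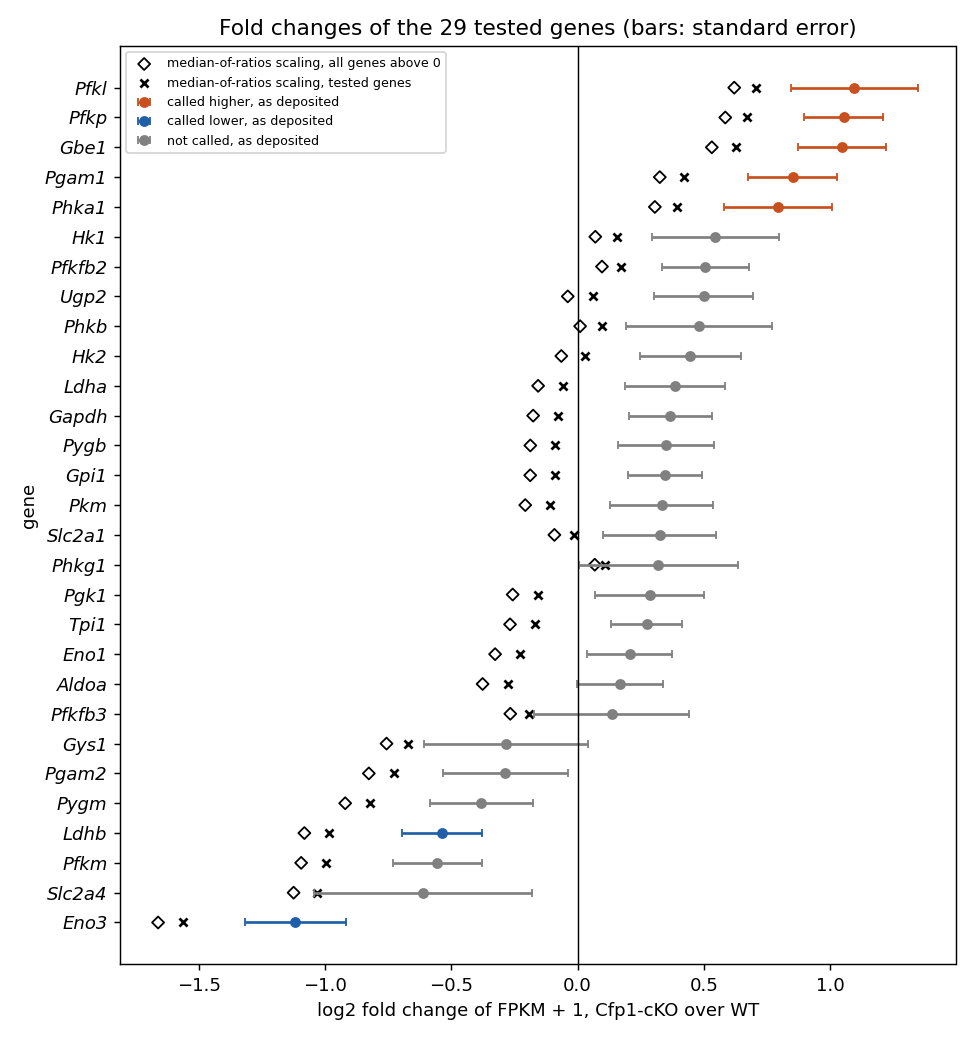
Log2 fold change of FPKM + 1, Cfp1-cKO over WT (horizontal), for the 29 tested genes (vertical), as deposited with standard errors (circles, coloured where called) and after median-of-ratios scaling with factors from all genes above 0 (diamonds) or from the tested genes (crosses). Eno3 lies lowest on all 3 scales (-1.12 as deposited), and Pfkl lies highest (1.10 as deposited).

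The promoters of the 2 genes that rose most and of the 2 that fell are shown because Cfp1 binds CG dinucleotides, which are in capitals. They run from 250 bases before to 50 bases after the start of the gene, 5′ to 3′ on the strand of the gene, as RefSeq gives them for GRCm38.p6. Pfkl lies at chr10:78009758-78010057 (minus strand) and holds 20 CG, Pfkp at chr13:6648722-6649021 (minus strand) with 21 CG, Eno3 at chr11:70656926-70657225 (plus strand) with 3 CG, and Ldhb at chr6:142507908-142508207 (minus strand) with 17 CG.
Pfkl: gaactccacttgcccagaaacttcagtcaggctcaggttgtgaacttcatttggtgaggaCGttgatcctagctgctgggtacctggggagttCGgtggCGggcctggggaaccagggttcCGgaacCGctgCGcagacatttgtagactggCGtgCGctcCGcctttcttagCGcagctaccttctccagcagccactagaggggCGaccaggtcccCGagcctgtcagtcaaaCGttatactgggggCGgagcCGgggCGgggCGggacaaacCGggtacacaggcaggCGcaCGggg
Pfkp: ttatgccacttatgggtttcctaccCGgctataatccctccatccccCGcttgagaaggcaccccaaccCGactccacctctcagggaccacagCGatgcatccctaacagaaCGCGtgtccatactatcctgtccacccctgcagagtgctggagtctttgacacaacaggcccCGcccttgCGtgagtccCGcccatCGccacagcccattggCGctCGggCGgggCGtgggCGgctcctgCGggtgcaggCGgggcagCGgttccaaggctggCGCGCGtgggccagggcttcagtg
Eno3: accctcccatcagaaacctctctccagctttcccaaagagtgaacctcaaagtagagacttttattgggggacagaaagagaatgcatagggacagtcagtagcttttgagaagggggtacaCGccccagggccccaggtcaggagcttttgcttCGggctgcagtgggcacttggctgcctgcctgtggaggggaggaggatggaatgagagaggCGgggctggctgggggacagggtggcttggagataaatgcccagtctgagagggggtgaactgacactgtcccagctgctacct
Ldhb: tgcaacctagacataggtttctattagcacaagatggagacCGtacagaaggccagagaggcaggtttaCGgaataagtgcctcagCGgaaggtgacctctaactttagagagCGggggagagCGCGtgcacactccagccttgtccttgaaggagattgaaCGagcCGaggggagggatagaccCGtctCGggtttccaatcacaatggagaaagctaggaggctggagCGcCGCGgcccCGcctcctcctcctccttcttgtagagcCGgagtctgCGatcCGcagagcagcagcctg

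Neither glucose transporter among the members passed the test. Slc2a4, the insulin-regulated transporter of muscle and fat, is also known as GLUT4. It had WT levels of 26.8, 10.3 and 45.3 FPKM, with Cfp1-cKO levels of 14.0, 14.3 and 16.8 FPKM. As deposited, WT replicate 2 lay below all Cfp1-cKO libraries and the other WT libraries lay above them, and the log2 fold change of -0.61 (SE 0.43) did not pass the test (adjusted p = 0.290 from limma). With median-of-ratios scaling all Cfp1-cKO libraries lay below all WT libraries, and the value of -1.12 did not pass either (adjusted p = 0.138 from limma). As deposited but without WT replicate 2 it was -1.17 and was called lower (adjusted p = 0.0193 from limma). Slc2a1, the basal transporter of most cells, stood at 2.05, 4.22 and 2.19 FPKM (WT replicates 1 to 3), compared with 3.24, 3.90 and 3.80 FPKM (Cfp1-cKO replicates 1 to 3), with WT replicate 2 the highest of all. Its log2 fold change of 0.32 (SE 0.22, adjusted p = 0.279 from limma) turned to -0.09 with median-of-ratios scaling, and without WT replicate 2 it was 0.57 and called higher (adjusted p = 0.0468 from limma).

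The hexokinases trap glucose in the cell as glucose 6-phosphate. Hk2, the insulin-responsive form of muscle, measured 10.9, 12.4 and 17.8 FPKM across WT libraries, against 16.9, 21.4 and 17.8 FPKM across Cfp1-cKO libraries. Hk1, the form of most tissues, had WT levels of 5.81, 4.02 and 9.17 FPKM, with Cfp1-cKO levels of 7.94, 9.81 and 10.2 FPKM. For both, WT replicate 3 reached into the Cfp1-cKO range, and neither passed the test (log2 fold change 0.45 and adjusted p = 0.121 for Hk2, 0.55 and 0.129 for Hk1, from limma). Without WT replicate 3 both were called higher, Hk2 at 0.64 (adjusted p = 0.0378 from limma) and Hk1 at 0.81 (0.0298), while with median-of-ratios scaling Hk2 was at -0.06 and Hk1 at 0.07. Gpi1, which turns glucose 6-phosphate into fructose 6-phosphate, stood at 38.7, 42.1 and 45.4 FPKM (WT replicates 1 to 3), compared with 48.3, 54.4 and 58.7 FPKM (Cfp1-cKO replicates 1 to 3). All 3 Cfp1-cKO values of Gpi1 lay above WT as deposited and below WT with median-of-ratios scaling (42.6 to 46.1 against 47.2 to 55.2), and it was not called on either scale.

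Phosphofructokinase, the committed step of glycolysis, had its muscle subunit in lower proportion in Cfp1-cKO hearts, where Pfkl and Pfkp rose. Pfkm, the muscle subunit (ENSMUSG00000033065, GRCm38 chromosome 15 from 98092589 to 98132447), measured 127, 126 and 162 FPKM across WT libraries, against 87.0, 84.1 and 111 FPKM across Cfp1-cKO libraries. The groups did not overlap, but the log2 fold change of -0.56 (SE 0.18) missed the threshold (adjusted p = 0.0515 from limma). It was called lower with median-of-ratios scaling (-1.09, adjusted p = 0.0142 from limma) and with voom on the fragments recovered from the FPKM steps (-0.69, adjusted p = 0.0326). Of its exon length of 3340 bases in GENCODE release M21, 10.2% is shared with Gm26513 on the same strand. The FPKM of Pfkm fitted a shorter length of 2957 bases, so this overlap may not hold for the deposited values.

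Pfkl, the liver subunit (ENSMUSG00000020277, chromosome 10 from 77986947 to 78010083), had WT levels of 5.16, 3.31 and 6.61 FPKM, with Cfp1-cKO levels of 9.05, 15.1 and 11.2 FPKM. Every Cfp1-cKO library lay above every WT library, and Pfkl rose with a log2 fold change of 1.10 (SE 0.25, adjusted p = 0.0222 from limma). The call was lost without WT replicate 1 (adjusted p = 0.0600 from limma), Cfp1-cKO replicate 2 (0.0889) or Cfp1-cKO replicate 3 (0.0581), and with median-of-ratios scaling (0.62, adjusted p = 0.120). Pfkp, the platelet subunit (ENSMUSG00000021196, chromosome 13 from 6579768 to 6648777), stood at 3.72, 4.12 and 5.25 FPKM (WT replicates 1 to 3), compared with 10.6, 9.67 and 9.91 FPKM (Cfp1-cKO replicates 1 to 3). Pfkp rose with a log2 fold change of 1.05 (SE 0.16, adjusted p = 0.00565 from limma), kept its call without any 1 library, and was at 0.58 with median-of-ratios scaling (adjusted p = 0.0638). Of the exon length of Pfkp, 5.58% is shared with Pitrm1 on the opposite strand. Pfkm made up 93.7% ± 0.64 of the summed FPKM of the 3 subunits in WT and 80.9% ± 3.44 in Cfp1-cKO hearts (SD, n = 3 each).

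The Pfkfb genes encode the enzymes that make and remove fructose 2,6-bisphosphate, the activator of phosphofructokinase. Pfkfb2, the heart form, measured 1.89, 2.62 and 3.13 FPKM across WT libraries, against 4.25, 3.95 and 3.76 FPKM across Cfp1-cKO libraries, without overlap. Its log2 fold change of 0.51 (SE 0.17) missed the threshold (adjusted p = 0.0627 from limma) but was called without WT replicate 3 (0.62, adjusted p = 0.0446), while with median-of-ratios scaling it was 0.097 (adjusted p = 0.748) and the groups overlapped. For Pfkfb2, 17.4% of the exon length is shared with the predicted gene Gm29427 on the same strand. Pfkfb3, the inducible form, had WT levels of 1.81, 4.98 and 1.58 FPKM, with Cfp1-cKO levels of 2.51, 2.71 and 3.41 FPKM. WT replicate 2 was the highest and the other WT libraries the lowest, and the log2 fold change was 0.13 as deposited (adjusted p = 0.748 from limma) but -0.27 with median-of-ratios scaling. Pfkfb1, the liver form, was below the filter, at 1.06, 0.423 and 0.926 FPKM for WT, against 0.677, 0.687 and 1.13 FPKM for Cfp1-cKO.

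The middle of the pathway was abundant, and none of its genes was called. Aldoa, the aldolase of muscle, stood at 287, 262 and 307 FPKM (WT replicates 1 to 3), compared with 336, 368 and 264 FPKM (Cfp1-cKO replicates 1 to 3). Tpi1, which interconverts the triose phosphates, measured 188, 163 and 183 FPKM across WT libraries, against 221, 222 and 204 FPKM across Cfp1-cKO libraries. Gapdh, which oxidises glyceraldehyde 3-phosphate, had WT levels of 588, 536 and 526 FPKM, with Cfp1-cKO levels of 720, 822 and 602 FPKM. Cfp1-cKO values of Tpi1 and Gapdh lay above all WT values as deposited, while those of Aldoa overlapped. Pgk1, the first step that yields ATP, stood at 219, 163 and 240 FPKM (WT replicates 1 to 3), compared with 263, 302 and 195 FPKM (Cfp1-cKO replicates 1 to 3). Log2 fold changes of these 4 genes were 0.17 for Aldoa, 0.27 for Tpi1, 0.37 for Gapdh and 0.29 for Pgk1 (adjusted p = 0.462, 0.163, 0.122 and 0.323 from limma), and all 4 were below 0 with median-of-ratios scaling, between -0.38 and -0.18, where Tpi1 and Gapdh overlapped and Aldoa did not. Aldoc, the brain form of aldolase, was listed at 0 in WT replicate 1 and was at 0.0488 and 0.136 FPKM in the other WT libraries against 0.189, 0.496 and 0.851 FPKM in the Cfp1-cKO libraries, below the filter.

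Phosphoglycerate mutase and enolase, the next 2 steps, each have a muscle form that was more abundant than the other form in every library. Pgam1, the form of most tissues (ENSMUSG00000011752, chromosome 19 from 41911871 to 41918664), measured 19.7, 24.0 and 19.7 FPKM across WT libraries, against 37.9, 47.1 and 32.7 FPKM across Cfp1-cKO libraries. Pgam1 rose with a log2 fold change of 0.85 (SE 0.18, adjusted p = 0.0168 from limma), a call that was lost without WT replicate 1 (adjusted p = 0.0633) or Cfp1-cKO replicate 2 (0.0717) and with median-of-ratios scaling (0.33, adjusted p = 0.361). Pgam2, the muscle form, had WT levels of 186, 123 and 251 FPKM, with Cfp1-cKO levels of 135, 159 and 147 FPKM, a wide WT range that enclosed the Cfp1-cKO values (log2 fold change -0.29, adjusted p = 0.384 from limma). With median-of-ratios scaling all Cfp1-cKO values of Pgam2 lay below WT, at -0.83 (adjusted p = 0.0708 from limma), and those of Pgam1 overlapped with WT.

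Eno3, the muscle enolase (ENSMUSG00000060600, chromosome 11 from 70657202 to 70662513), stood at 618, 549 and 761 FPKM (WT replicates 1 to 3), compared with 238, 299 and 354 FPKM (Cfp1-cKO replicates 1 to 3). It was the most abundant member in WT and fell to 0.462 times the WT mean. Its log2 fold change was -1.12 (SE 0.20, adjusted p = 0.0110 from limma), and it was called lower in each alternative run, those that left out a library included. Eno1, the form of most tissues, measured 43.3, 42.3 and 36.6 FPKM across WT libraries, against 42.4, 57.1 and 42.9 FPKM across Cfp1-cKO libraries, with overlapping groups (log2 fold change 0.21, adjusted p = 0.356 from limma, and -0.33 with median-of-ratios scaling). Eno2, the neuronal form, stayed below the filter, at 0.112, 0.101 and 0.342 FPKM for WT, against 0.360, 0.459 and 0.342 FPKM for Cfp1-cKO. The summed FPKM of the 3 enolase genes was 684 ± 105 in WT and 345 ± 59.3 in Cfp1-cKO hearts (SD, n = 3 each).

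Pkm, the pyruvate kinase of muscle and most other tissues, had WT levels of 131, 104 and 178 FPKM, with Cfp1-cKO levels of 160, 172 and 178 FPKM (log2 fold change 0.33, adjusted p = 0.227 from limma), and was at -0.21 with median-of-ratios scaling, with 15.3% of its exon length shared with Gm49759. Lactate dehydrogenase interconverts pyruvate and lactate. Ldhb, the heart form (ENSMUSG00000030246, chromosome 6 from 142490249 to 142507957), stood at 563, 613 and 492 FPKM (WT replicates 1 to 3), compared with 425, 351 and 370 FPKM (Cfp1-cKO replicates 1 to 3). The groups did not overlap and Ldhb fell, with a log2 fold change of -0.54 (SE 0.16, adjusted p = 0.0422 from limma). This call lay near the threshold and was lost without any 1 library other than WT replicate 3 (adjusted p between 0.0528 and 0.156 from limma), while with median-of-ratios scaling it was at -1.08 (adjusted p = 0.0343). Ldha, the form that predominates in skeletal muscle, measured 197, 204 and 163 FPKM across WT libraries, against 232, 315 and 200 FPKM across Cfp1-cKO libraries (log2 fold change 0.39, adjusted p = 0.164 from limma, and -0.16 with median-of-ratios scaling). Slc16a3, the lactate exporter MCT4 of glycolytic cells, was below the filter, at 0.373, 0.299 and 0.261 FPKM for WT, against 0.791, 1.82 and 0.845 FPKM for Cfp1-cKO.

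**Figure D2:**
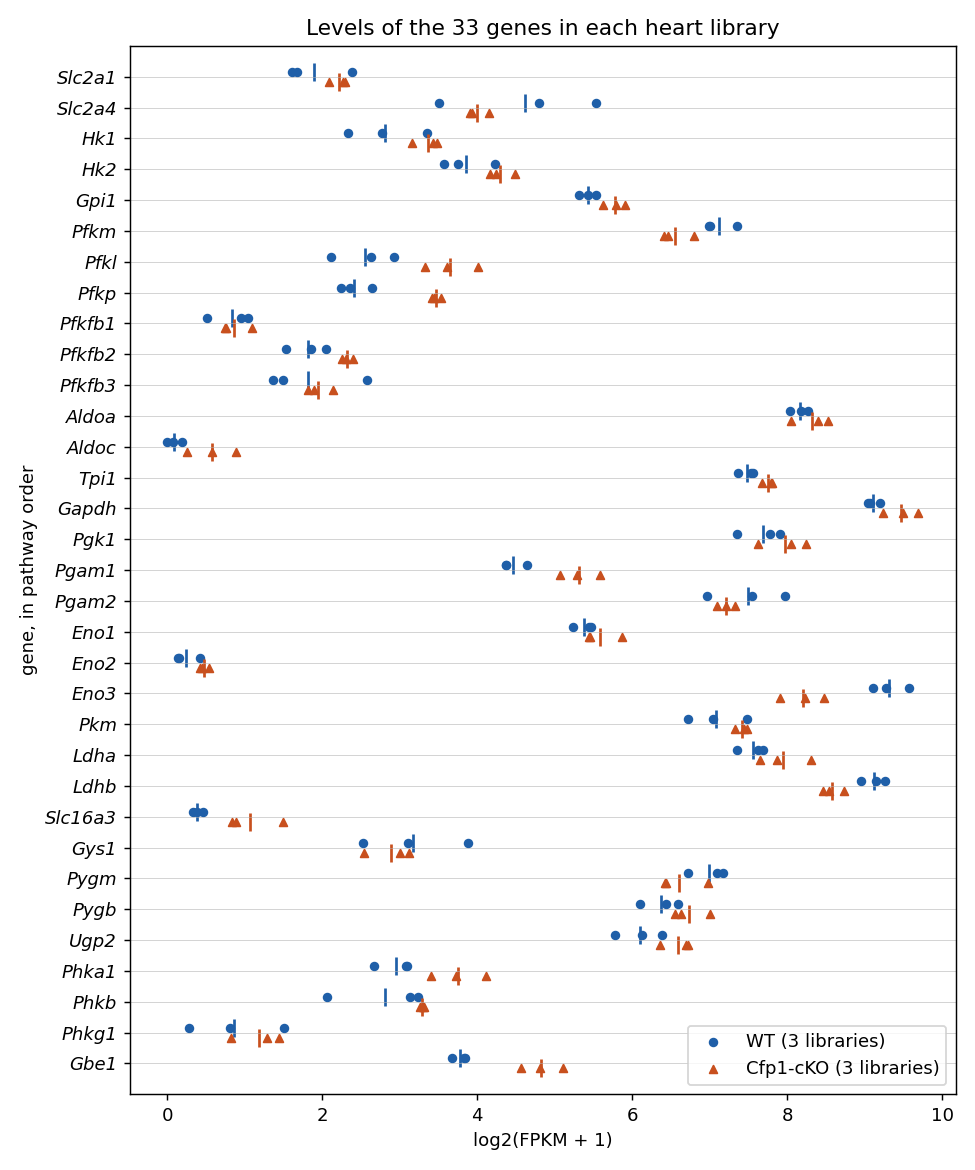
log2(FPKM + 1) of the 33 genes (rows, in pathway order) in the 3 WT (circles) and 3 Cfp1-cKO libraries (triangles), with group means as vertical ticks. On the deposited scale, Eno3, Ldhb and Pfkm have all Cfp1-cKO points to the left of WT. Pfkl, Pfkp, Pgam1, Phka1 and Gbe1, the genes called higher, have them all to the right. So do Gpi1, Pfkfb2, Aldoc, Tpi1, Gapdh, Slc16a3 and Phkb, which were not called or not tested. Of all tested genes, 46.4% have all Cfp1-cKO libraries above WT and 3.23% below.

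Glycogen is built by glycogen synthase on glucose that Ugp2 has activated, and Gbe1 adds its branches. Gbe1, the branching enzyme (ENSMUSG00000022707, chromosome 16 from 70313949 to 70569716), had WT levels of 13.3, 11.7 and 13.2 FPKM, with Cfp1-cKO levels of 27.0, 22.7 and 33.4 FPKM. Gbe1 rose with a log2 fold change of 1.05 (SE 0.17, adjusted p = 0.00847 from limma) and kept its call without any 1 library, but was at 0.53 with median-of-ratios scaling (adjusted p = 0.127). Gys1, the glycogen synthase of muscle, stood at 7.58, 4.75 and 13.7 FPKM (WT replicates 1 to 3), compared with 4.80, 7.04 and 7.65 FPKM (Cfp1-cKO replicates 1 to 3), with overlap as deposited (log2 fold change -0.28, adjusted p = 0.512 from limma) and all Cfp1-cKO values below WT with median-of-ratios scaling (-0.76, adjusted p = 0.144). Ugp2 measured 69.0, 53.8 and 82.5 FPKM across WT libraries, against 105, 103 and 81.2 FPKM across Cfp1-cKO libraries (0.50, adjusted p = 0.0876 from limma). Without WT replicate 3 Ugp2 was called higher (0.64, adjusted p = 0.0465 from limma), and with median-of-ratios scaling it was at -0.04.

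Glycogen phosphorylase releases glucose 1-phosphate, and phosphorylase kinase switches it on. Pygm, the muscle phosphorylase, had WT levels of 104, 135 and 143 FPKM, with Cfp1-cKO levels of 85.5, 84.4 and 125 FPKM. Cfp1-cKO replicate 3 lay within the WT range as deposited, and the log2 fold change of -0.38 (SE 0.21, adjusted p = 0.181 from limma) became -0.92 with median-of-ratios scaling (adjusted p = 0.0460) and -0.82 with factors from the tested genes (adjusted p = 0.0554). Pygb, the brain form, stood at 85.5, 67.7 and 95.3 FPKM (WT replicates 1 to 3), compared with 97.7, 92.6 and 128 FPKM (Cfp1-cKO replicates 1 to 3) (0.35, adjusted p = 0.181 from limma, and -0.19 with median-of-ratios scaling).

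Phka1, the muscle alpha subunit of phosphorylase kinase (ENSMUSG00000034055, chromosome X from 102513975 to 102644246), measured 5.37, 7.54 and 7.49 FPKM across WT libraries, against 12.2, 9.61 and 16.2 FPKM across Cfp1-cKO libraries. Phka1 rose with a log2 fold change of 0.80 (SE 0.21, adjusted p = 0.0338 from limma). The call was lost without WT replicate 1 (adjusted p = 0.111 from limma), Cfp1-cKO replicate 1 (0.0680), 2 (0.0527) or 3 (0.0933), and with median-of-ratios scaling (0.31, adjusted p = 0.414). Phkb, the beta subunit, had WT levels of 7.77, 3.18 and 8.41 FPKM, with Cfp1-cKO levels of 8.89, 8.60 and 8.90 FPKM (0.48, adjusted p = 0.221 from limma). Phkg1, the catalytic subunit of muscle, stood at 0.751, 0.212 and 1.84 FPKM (WT replicates 1 to 3), compared with 0.765, 1.71 and 1.45 FPKM (Cfp1-cKO replicates 1 to 3) (0.32, adjusted p = 0.444 from limma). With median-of-ratios scaling Phkb was at 0.010 and Phkg1 at 0.068. WT replicate 2 was the lowest library for Phkb and Phkg1.

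The ratio of 2 forms within a library does not depend on the scaling between libraries. The genes and 5 of the pairs were chosen with earlier results of these data known. In these 5 pairs, the muscle or heart form made up less relative to the other form in every Cfp1-cKO library than in any WT library. How often other pairs of genes separate in this way was not computed. On the deposited scale, 46.4% of all tested genes had all Cfp1-cKO libraries above WT and 3.23% had them below. Pfkm over Pfkl was 24.6, 37.9 and 24.5 among WT libraries, against 9.61, 5.55 and 9.90 among Cfp1-cKO libraries, and Pfkm over Pfkp was 34.1, 30.5 and 30.9 among WT libraries, against 8.20, 8.69 and 11.2 among Cfp1-cKO libraries. These ratios were 3.51-fold and 3.43-fold lower in Cfp1-cKO hearts (difference of log2 ratios -1.81, SE 0.34, and -1.78, SE 0.15). Eno3 over Eno1 was 14.3, 13.0 and 20.8 among WT libraries, against 5.61, 5.23 and 8.25 among Cfp1-cKO libraries, a difference of log2 ratios of -1.33 (SE 0.29). Pgam2 over Pgam1 was 9.47, 5.14 and 12.7 among WT libraries, against 3.57, 3.38 and 4.51 among Cfp1-cKO libraries (-1.17, SE 0.41). Ldhb over Ldha was 2.86, 2.999 and 3.02 among WT libraries, against 1.83, 1.12 and 1.85 among Cfp1-cKO libraries (-0.93, SE 0.24), with Cfp1-cKO replicate 2 nearest to equal levels.

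Each of these 5 differences had a two-sided exact permutation p = 0.10, the smallest that 3 libraries against 3 allow, and an adjusted p of 0.129 over the 9 pairs computed, so that the design cannot reach 0.05. Pairs share genes, since Pfkm and Eno3 each stand in more than 1. On the deposited scale Pfkl, Pfkp and Pgam1 rose and Eno3 and Ldhb fell, while Pfkm, Pgam2, Eno1 and Ldha were not called. Of the 4 pairs added here, Pygm over Pygb was 1.21, 2.00 and 1.496 among WT libraries, against 0.875, 0.911 and 0.979 among Cfp1-cKO libraries (-0.74, SE 0.21), so that Pygm was the more abundant form in the WT libraries and Pygb in the Cfp1-cKO libraries. Slc2a4 over Slc2a1 overlapped between genotypes (-1.08, SE 0.94, two-sided exact permutation p = 0.40), as did Hk2 over Hk1 (-0.15, SE 0.25, exact p = 0.80). Eno3 over Eno2 was also lower in every Cfp1-cKO library (-2.41, SE 0.48), on very low levels of Eno2. The lung epithelium markers given above (12 of 13 higher) and cardiomyocyte markers (5 of 12 lower) also differed between genotypes in the same libraries. The summed cardiomyocyte level overlapped in WT replicate 2. The part of these markers in the ratios was not tested.

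**Figure D3:**
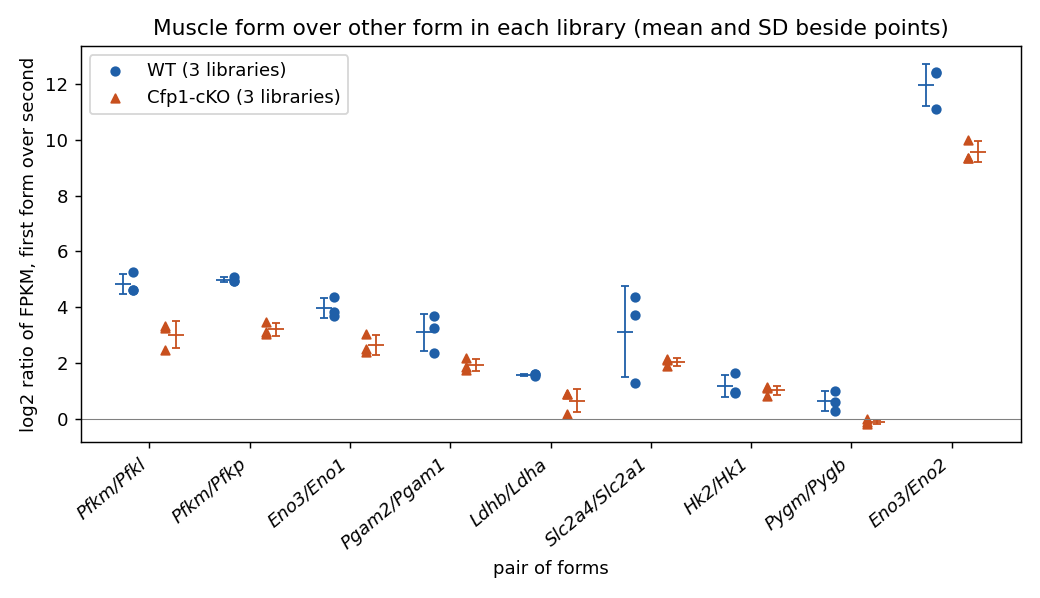
Log2 ratio of the FPKM of 2 forms (vertical) for 9 pairs (horizontal) in each WT (circles) and Cfp1-cKO library (triangles), with group mean and SD beside the points. The 5 pairs on the left separate by genotype without overlap, while Slc2a4/Slc2a1 and Hk2/Hk1 overlap.

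The other genes of glucose and glycogen metabolism, in 6 lists, were compared in the same fit. Of 63 tested, 11 were higher and 3 were lower in Cfp1-cKO hearts, with a median log2 fold change of 0.23, beside 21.1% higher, 1.68% lower and 0.35 over all tested genes. With median-of-ratios scaling none of 62 was higher by limma, where 23 had an unadjusted p under 0.05 in either direction, and the same 3 genes, Klf15, Ppp1r3a and Fbp2, were lower. The pentose phosphate pathway, which branches off at glucose 6-phosphate, had 4 of 8 genes higher and none lower. Of 5 tested transporters and lactate carriers 2 were higher, of 6 other glycolytic enzymes 2 were higher and 1 lower, of 18 other glycogen genes 1 was higher and 1 lower, of 14 genes of insulin-regulated uptake 1 was higher, and of 12 transcription factors of glycolysis 1 was higher and 1 lower.

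Both glycogen changes concerned subunits that target protein phosphatase 1 to glycogen. Ppp1r3c measured 13.6, 8.08 and 15.4 FPKM across WT libraries, against 38.9, 43.9 and 24.7 FPKM across Cfp1-cKO libraries. Its log2 fold change was 1.47 (adjusted p = 0.0130 from limma, and 0.0565 without Cfp1-cKO replicate 2). With median-of-ratios scaling Ppp1r3c was at 0.95 and was not called (adjusted p = 0.0853 from limma). Ppp1r3a, the striated muscle subunit, had WT levels of 33.2, 29.6 and 40.9 FPKM, with Cfp1-cKO levels of 9.65, 12.1 and 22.1 FPKM (-1.25, adjusted p = 0.0205 from limma). The call of Ppp1r3a was lost without WT replicate 1 (adjusted p = 0.0581 from limma), Cfp1-cKO replicate 1 (0.0512) or Cfp1-cKO replicate 2 (0.0835). In these 2 genes the groups did not overlap.

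Klf15, a transcription factor that regulates Slc2a4 in muscle, stood at 16.2, 28.4 and 15.6 FPKM (WT replicates 1 to 3), compared with 6.27, 4.23 and 11.2 FPKM (Cfp1-cKO replicates 1 to 3) (-1.39, adjusted p = 0.0255 from limma). Its call was lost without WT replicate 1 (adjusted p = 0.0543 from limma), Cfp1-cKO replicate 1 (0.0616) or Cfp1-cKO replicate 2 (0.0899). Fbp2, the muscle fructose bisphosphatase, measured 23.2, 22.8 and 22.3 FPKM across WT libraries, against 19.6, 11.3 and 12.7 FPKM across Cfp1-cKO libraries (-0.65, adjusted p = 0.0499 from limma), and was no longer called when any library except Cfp1-cKO replicate 1 was left out (adjusted p between 0.0709 and 0.175). The other rises named by size were those of H6pd, an enzyme of the pentose phosphate pathway in the endoplasmic reticulum (0.90), of Bpgm, which makes 2,3-bisphosphoglycerate in red cells (0.88), of Akt2, the kinase between insulin and Slc2a4 (0.85), of Mlx, the partner of the glucose sensor ChREBP (0.82), and of Slc16a7, a lactate carrier (0.78). Bpgm had WT levels of 4.05, 3.95 and 4.58 FPKM, with Cfp1-cKO levels of 7.25, 11.8 and 7.23 FPKM, while the summed erythroid markers, led by Hbb-bs, stood at 59.8, 1007 and 102 FPKM (WT replicates 1 to 3), compared with 1194, 1892 and 233 FPKM (Cfp1-cKO replicates 1 to 3), and their part in Bpgm was not tested. Bpgm lost its call without WT replicate 1 (adjusted p = 0.0702 from limma) or Cfp1-cKO replicate 2 (0.0714). Akt2, at 9.64 to 11.7 FPKM in WT and 18.6 to 21.1 FPKM in Cfp1-cKO hearts, kept its call without any 1 library. With median-of-ratios scaling Akt2 was at 0.34 (adjusted p = 0.164 from limma), and none of the rises named here was called. H6pd ranged from 2.52 to 4.75 FPKM in WT and from 6.25 to 8.98 FPKM in Cfp1-cKO hearts, and its call was lost without WT replicate 1 or 2 or Cfp1-cKO replicate 2 or 3 (adjusted p between 0.0506 and 0.0802 from limma). Mlx, at 5.79 to 6.90 against 10.8 to 12.6 FPKM, lost its call without Cfp1-cKO replicate 2 (0.0543), and Slc16a7, at 0.380 to 0.661 against 1.21 to 1.84 FPKM, without WT replicate 1 (0.0829).

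Other marker lists also held genes that differed between genotypes. Over all tested genes, 21.1% were called higher and 1.68% lower on the same deposited scale. Of 6 atrial markers 3 were lower, led by Myl7, and 1 was higher, and their sum was 861 to 1530 FPKM in WT and 349 to 648 FPKM in Cfp1-cKO hearts. Skeletal muscle myosins Myh1, Myh2 and Myh3 were at 0 in all WT libraries and at or near 0 in Cfp1-cKO hearts, and 3 of 3 tested skeletal markers were higher, led by Casq1, with sums of 3.59 to 6.62 FPKM in WT and 23.5 to 25.1 FPKM in Cfp1-cKO hearts. Of 8 fibroblast markers, led by Dcn, 1 was higher, and of 8 endothelial markers, led by Fabp4, 3 were higher. Of 5 smooth muscle markers, led by Acta2, 4 could be tested and 1 was higher. Beside the share over all tested genes, these counts do not by themselves show a change in those cells. Of 8 fat markers, led by Cidea, 2 could be tested and 1 was higher, with Lep and Retn at 0 in all WT libraries, of 9 neuron and Schwann cell markers 1, Uchl1, could be tested and was higher, and no erythroid marker was called (limma; 1 had an unadjusted p under 0.05). With median-of-ratios scaling no marker of fibroblasts, endothelium, smooth muscle, fat or neurons was called by limma. The part of these cells in the members' values was not tested.

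RefSeq promoters of 300 bases were found for 32 of the 33 genes, 50 windows in all, since several genes have more than 1 start. The window of Eno3 holds 3 CG, that of Pgam2 1, that of Pygm 4 and those of Pfkm 4 to 12, while Pfkl holds 20, Pfkp 21, Phka1 25, Pgam1 30 and Gbe1 14. Ldhb, which fell, holds 17, and Phkg1, which was not called, holds 2. The median over all 32851 windows is 7, but over tested genes, taking for each the window with the most CG, it is 23, with 21 for genes called higher and 17 for genes called lower. Of the 5 genes called higher, Pfkl, Pfkp and Gbe1 thus lie below the median of tested genes, and Phka1 and Pgam1 above it. Across 28 tested genes, taking the window with the most CG, Spearman's rho with the log2 fold change was 0.41, and over 8188 tested genes with a window it was -0.09. These are descriptions across genes, which share libraries and base composition and are not independent.

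The motif ACGTG, the core of the hypoxia response element, was searched on both strands. It was found in a window of 17 of the 32 genes (53.1%), beside 21.8% of all genes with a window, and Ldha held the most, with 5 in 1 window. The E-box CACGTG, which contains ACGTG, was in 4 of the 32 (12.5%) beside 8.09% of all genes. Genes with more windows have more chances of a match. Both motifs contain CG, and their shares over tested genes, or over genes with a like number of CG, were not computed. Pfkl, Pfkp, Gbe1, Phka1, Eno3 and Ldhb, 6 of the 7 called genes, held neither in these windows.

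**Figure D4:**
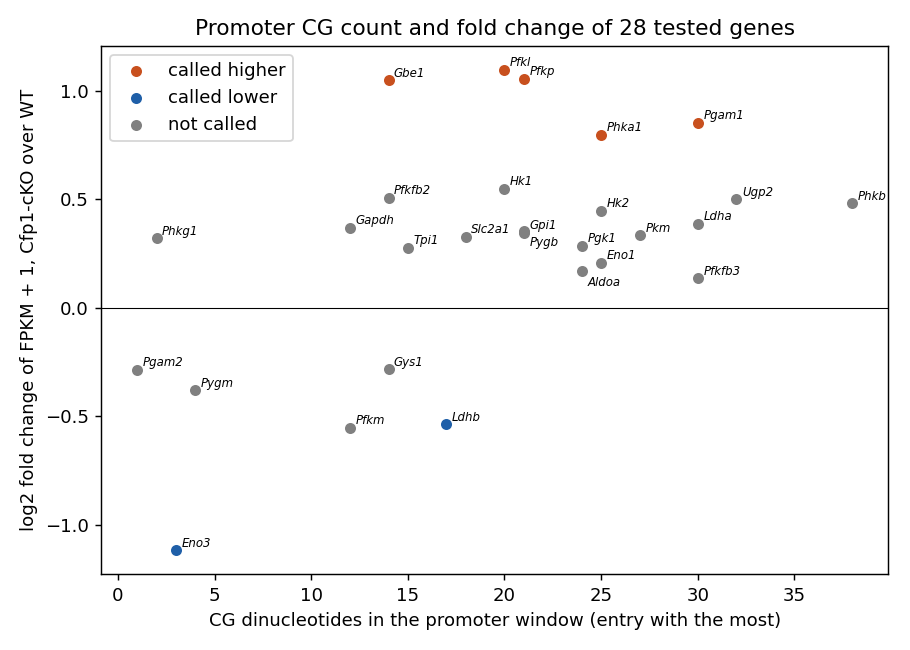
Log2 fold change of FPKM + 1, Cfp1-cKO over WT (vertical), against the number of CG dinucleotides in the promoter window with the most (horizontal), for 28 tested genes with a RefSeq window, coloured by call. Eno3, called lower, and Pgam2 and Pygm, not called, lie at the lower left with 1 to 4 CG. The 5 genes called higher as deposited lie between 14 and 30 CG, a range that also holds genes not called. Ldhb, called lower, lies at 17 CG, and Phkg1, at a fold change of 0.32, has 2 CG. Over 8188 tested genes with a window, Spearman's rho was -0.09.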

How the data were processed

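Heart RNA of WT and Cfp1-cKO mice was sequenced, in 3 libraries of each genotype. The authors deposited FPKM per gene in 2 tables, whose 6 sample columns were identical. The tools listed in the submitters' processing notes, with no order given, are CASAVA, Bowtie2 2.2.3, TopHat2, HTSeq 0.6.0, HISAT2 2.1.0 and DESeq2, and the build is GRCm38. The paper gives a chicken genome address for the reference, and the extraction text speaks of retinas. Whether counting used strand is not given in the sources used here, so fragments of overlapping antisense genes (Gpi1 shares 11.5% of its exon length with Gm26762) or of the processed pseudogenes of genes such as Gapdh and Pgam1 cannot be told apart.

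FPKM steps gave whole fragments (tolerance 0.02) at the length of GENCODE release M21 for 23958 of 26881 genes and 30 of the 33 members. For other genes the shortest length that gave whole fragments in every library was sought. This fitted length brought the share to 99.5% of genes and all 33 members. Replicates differed by more than sampling noise (chi-square per degree of freedom 25.9 to 72.6), so each library counted once. The log2(FPKM + 1) values of genes averaging 1 FPKM or more were fitted with limma 3.58.1 (R 4.3.3; prior variance with a trend). Fold changes on this scale understate low genes. Aldoa over Aldoc, planned as the 10th pair, was left out because Aldoc was at 0 in 1 library. The limma fit was checked on simulated data with no shift of scale between the groups. That check therefore does not bear on the choice of scaling. Ratios and plots used Python 3.11.15, numpy 2.4.6, pandas 2.3.3 and matplotlib 3.10.9.

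All members are described; of the other lists, the called genes with the 6 largest rises and 6 largest falls are named. Members and lists were chosen with earlier results of these data known. Alternatives covered the pseudocount, filters, scaling, mitochondrial and haemoglobin genes, variance moderation, library weights, a replicate block, the fold threshold, voom and each library left out. Protein sequences were not used here.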

Additional observations from a re-analysis of the deposited data

How the results depend on the processing

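Eno3 was called lower under each alternative run, and Pfkp and Gbe1 were called higher under all except median-of-ratios scaling (both versions for Gbe1). The counts of genes called among the 29 and among the other glucose and glycogen genes depended on the scaling, the filter, the weights and single libraries. With no filter on low values, where all 33 members were tested, 3 were called higher and 1 lower. Of the 29, 3 higher and 1 lower were called with a fold threshold of 1, and 0 higher and 4 lower with median-of-ratios scaling. With the factors of that scaling from the tested genes (added after seeing the data), 1 was called higher and 3 lower. Upper-quartile scaling called 2 higher and 2 lower, and library weights 9 higher and 4 lower. Of the other genes, 0 were lower without the filter, 7 higher with a filter at a mean of 5 FPKM, 0 higher with either median-of-ratios scaling, 5 higher with upper-quartile scaling, 23 higher with library weights and 1 higher with a fold threshold of 1. Leaving out 1 library gave 2 to 9 higher and 1 to 2 lower of the 29, and 1 to 16 higher and 0 to 2 lower of the others, with the fewest higher among the 29 (2) without WT replicate 1 or Cfp1-cKO replicate 2 and the most (9) without WT replicate 3, which also gave the most of the others (16), while the fewest (1 higher, 0 lower) came without Cfp1-cKO replicate 2. Over all tested genes, 2325 higher and 185 lower of 11017 became 1518 and 91 of 26881 with no filter. With the filter at 5 FPKM they were 1027 and 152 of 5383, and with upper-quartile scaling 661 and 206 of 10959. They were 1377 and 177 of 10996 without mitochondrial and haemoglobin genes, and 4027 and 372 of 11017 with library weights. A fold threshold of 1 gave 666 and 77 of 11017, and voom gave 1413 and 211 of 11011. With 1 library left out they were 457 to 2614 and 45 to 201, of 10762 to 11220 tested. The cause of these shifts was not tested, beyond the fewer samples and the change of scale itself.

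These log2 fold changes, none of them called, turned below 0 with median-of-ratios scaling and, second, with its factors from the tested genes: Slc2a1 (-0.092, -0.015), Gpi1 (-0.19, -0.090), Pfkfb3 (-0.27, -0.19), Aldoa (-0.38, -0.28), Tpi1 (-0.27, -0.17), Gapdh (-0.18, -0.077), Pgk1 (-0.26, -0.16), Eno1 (-0.33, -0.23), Pkm (-0.21, -0.11), Ldha (-0.16, -0.057) and Pygb (-0.19, -0.089), and with the first alone Hk2 (-0.064) and Ugp2 (-0.039). Upper-quartile scaling turned Pfkfb3 (-0.037), Aldoa (-0.071) and Eno1 (-0.027). With 1 library left out, Pfkfb3 ranged from -0.088 to 0.52, Gys1 from -0.61 to 0.073 and the log2 ratio difference of Hk2 over Hk1 from -0.28 to 0.079. With a pseudocount of 1 in both forms the difference of Eno3 over Eno2 was -1.35.

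Libraries share replicate numbers, and the deviations of same-numbered libraries had correlations of 0.108, 0.036 and 0.104. The threshold set for pairing was 0.1, so that replicates 1 and 3 lay just above it and replicate 2 below. Each library correlated best with its own number. The study states no block, so the main fit did not take the numbers as pairs, and a replicate block was run as an alternative. With the replicate block, 4 of the 29 were higher and 2 lower (Eno3 and Pfkm lower, Pfkl and Ldhb lost), 1 of the other genes was lower, against 1597 higher and 152 lower of all tested genes. Replicate spread exceeded counting noise (chi-square per degree of freedom 25.9 to 72.6).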
